A study of Mus musculus with 30 samples.

Results

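Slc6a19, Best1, Prss41, Prss50, Muc2, Ntn5, Stpg1, Xlr3a, Plcg2 and Pcbd1 are 10 of the 18240 genes measured in mouse prefrontal cortex. They were chosen by name because their transcripts were higher in Adnp heterozygous (HT) than in wild type (WT) cortex, although most of them are known from epithelia, testis or immune cells and none is a meiotic gene. The choice used the normalized counts of these same libraries, so their difference between the genotypes is given below as a description, and nothing is read from a test of it.

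The tissue came from C57BL/6J mice at postnatal day 40 and was profiled by stranded poly(A) RNA sequencing in 30 libraries. WT mice received vehicle (4 female and 4 male libraries), and HT mice received vehicle (4 female, 3 male), the antidepressant fluoxetine (4 and 4) or the mood stabilizer lithium (3 and 4). No WT mice received a drug, and the sources used here do not give the dose and duration of the drugs or the nature of the mutant Adnp allele. The labels number the replicates without saying whether each is a separate mouse, so p-values measure only the spread between these libraries, which may be technical.

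Adnp encodes a homeodomain chromatin protein that works with the remodeler Chd4 and with HP1 proteins and is known to restrain genes of other lineages in embryonic stem cells. Genes restricted to a tissue are often kept at very low levels elsewhere by such chromatin factors. The 10 genes have unlike products, among them a transporter, a channel, proteases, a mucin and a netrin. The others are a protein with sperm tail repeats, an X-linked lymphocyte-regulated protein, a phospholipase and a pterin enzyme.

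The promoters of Prss41, Prss50 and Slc6a19 are printed first, because these genes showed the 3 largest fold differences and share a short run of letters. The sequences are the 250 bases before the RefSeq transcription start on build GRCm38.p6, written 5′ to 3′ on the gene's own strand. They cover chr17:23844157-23844406 (minus strand) for Prss41, chr9:110857714-110857963 (plus) for Prss50 and chr13:73692637-73692886 (minus) for Slc6a19. Capitals mark the letters AGNGGGCG, in which N is any base; in Slc6a19 the match is on the opposite strand and is printed as its reverse complement reads.
Prss41: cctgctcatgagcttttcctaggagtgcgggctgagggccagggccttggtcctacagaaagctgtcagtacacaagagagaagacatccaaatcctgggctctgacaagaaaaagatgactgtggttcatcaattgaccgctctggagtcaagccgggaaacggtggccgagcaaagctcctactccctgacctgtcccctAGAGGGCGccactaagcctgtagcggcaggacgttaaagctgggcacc
Prss50: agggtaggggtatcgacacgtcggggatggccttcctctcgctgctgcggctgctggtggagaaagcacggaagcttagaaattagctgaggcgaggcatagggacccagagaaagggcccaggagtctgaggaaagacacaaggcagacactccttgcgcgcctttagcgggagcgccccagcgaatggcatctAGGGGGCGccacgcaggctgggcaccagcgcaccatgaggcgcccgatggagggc
Slc6a19: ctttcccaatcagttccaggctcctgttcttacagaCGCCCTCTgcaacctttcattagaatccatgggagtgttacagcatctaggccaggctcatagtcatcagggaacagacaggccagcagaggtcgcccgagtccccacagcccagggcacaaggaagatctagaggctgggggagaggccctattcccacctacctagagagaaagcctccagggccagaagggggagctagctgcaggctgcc

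The match began 48 bases before the start in Prss41, 55 before it in Prss50 and 214 before it in Slc6a19. It was found in 3 of the 10 genes and in 12.2% of all 32851 RefSeq promoters of the same 300 bases (250 before to 50 after the start). In Prss41 and Prss50 the letters ran on as AGNGGGCGCCAC, on the same strand in both, which only 14 of the 32851 promoters hold (0.0426%). Both strings were picked after the sequences had been seen, so their presence in these genes is a description only; binding was not tested. Of the 8 other tested genes that hold the longer string, 0 were called higher in HT vehicle by limma, and their median log2 difference was -0.01. At the low share of calls given below, 0 was also the likely count for any 8 genes. Their log2 differences ran from -0.13 for Ythdf2 to 0.25 for Man2c1os. What the string does was not tested. Among these 8 genes were Dnajc7 (4121 ± 60.9, SD, n = 8, in WT and 4089 ± 84.7, n = 7, in HT vehicle) and Rint1 (425.5 ± 25.1 and 427.8 ± 16.5). Of the 3006 tested genes outside the 10 with the shorter string, 0.466% were called higher, against 0.61% of all 12141 tested genes outside the 10 that have a promoter in the table.

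The other motifs searched were each found in 1 or 2 of the 10 genes. CACGTG was found in Plcg2 only, 20 bases before the start (7.15% of all promoters). TCCCGC was found in Prss50 and Stpg1 (19.98%), and AGGGGGC in Prss50, where it overlaps the capitals printed above (10.6%). TATAAA was found in Muc2 and Pcbd1 (13.6%), 174 and 250 bases before the start. Both strands were searched. CpG content ranged from 1 site in Best1 to 21 in Prss50 and Plcg2, so the 10 promoters were not of 1 kind.

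The genes lie on 9 chromosomes, and only Muc2 and Ntn5 share 1. Coordinates are from GENCODE mouse release M21 on GRCm38, and all 10 genes are annotated as protein-coding. Slc6a19 (ENSMUSG00000021565) spans chr13:73679745-73704865, so the RefSeq start used above, 73692636, lies inside the longer GENCODE gene. Best1 (ENSMUSG00000037418) spans chr19:9985174-10001633, Prss41 (ENSMUSG00000024114) chr17:23836785-23844172 and Prss50 (ENSMUSG00000048752) chr9:110857967-110864629. Muc2 (ENSMUSG00000025515) spans chr7:141690340-141754693 and Ntn5 (ENSMUSG00000070564) chr7:45684022-45694556, far apart on the same chromosome. Stpg1 (ENSMUSG00000028801) spans chr4:135494790-135537803 and Xlr3a (ENSMUSG00000057836) chrX:73086293-73097095. Plcg2 (ENSMUSG00000034330), the longest at 136852 bases, spans chr8:117498291-117635142, and Pcbd1 (ENSMUSG00000020098), the shortest at 4994, spans chr10:61089331-61094324.

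The libraries ranged from 23771758 to 34307061 reads, of which 1 was worth 0.857 to 1.191 normalized counts. Adnp shares its exons with the annotated gene Gm20716, so the targeted locus was followed as the sum of both: 4316 ± 75.2 (SD, n = 8) in WT vehicle and 3663 ± 93.5 (n = 7) in HT vehicle, with no overlap (WT at least 4226, HT vehicle at most 3795). The row of Adnp alone was higher in HT vehicle, 2251 ± 137 against 1898 ± 157, while that of Gm20716 was lower, 1412 ± 90.2 against 2417 ± 158. Dpm1, also named for the check of this locus, was higher in HT vehicle, 730.7 ± 41.0 against 555.7 ± 56.3. Its groups did not overlap (WT at most 617.6, HT vehicle at least 690.3), and the cause was not tested. Markers of excitatory cortical neurons, all 8 of the list present, summed to 153956 to 180120 in WT vehicle and 138432 to 173757 in HT vehicle. Of these markers 0 had a positive log2 difference by genotype (median -0.09), and 0 were called by limma.

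All 10 genes passed the filter for testing, a mean normalized count of at least 10 over all libraries. On the 8 WT libraries alone 7 would have passed it, and Slc6a19, Prss41 and Prss50 would not. In a limma fit over 16824 genes, all 10 were called higher in HT vehicle at an adjusted p under 0.05, against 0.624% of all genes; the genes were chosen on this contrast, so nothing is read from that count. The median of their log2 differences was 1.45, with a range of 0.46 to 3.001, and the median of all genes tested was -0.00102. Every HT vehicle library exceeded every WT library for all 10 genes, a separation that 0.404% of all genes showed. In bulk tissue, more cells of a type and more RNA per cell cannot be told apart.

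**Figure D1:**
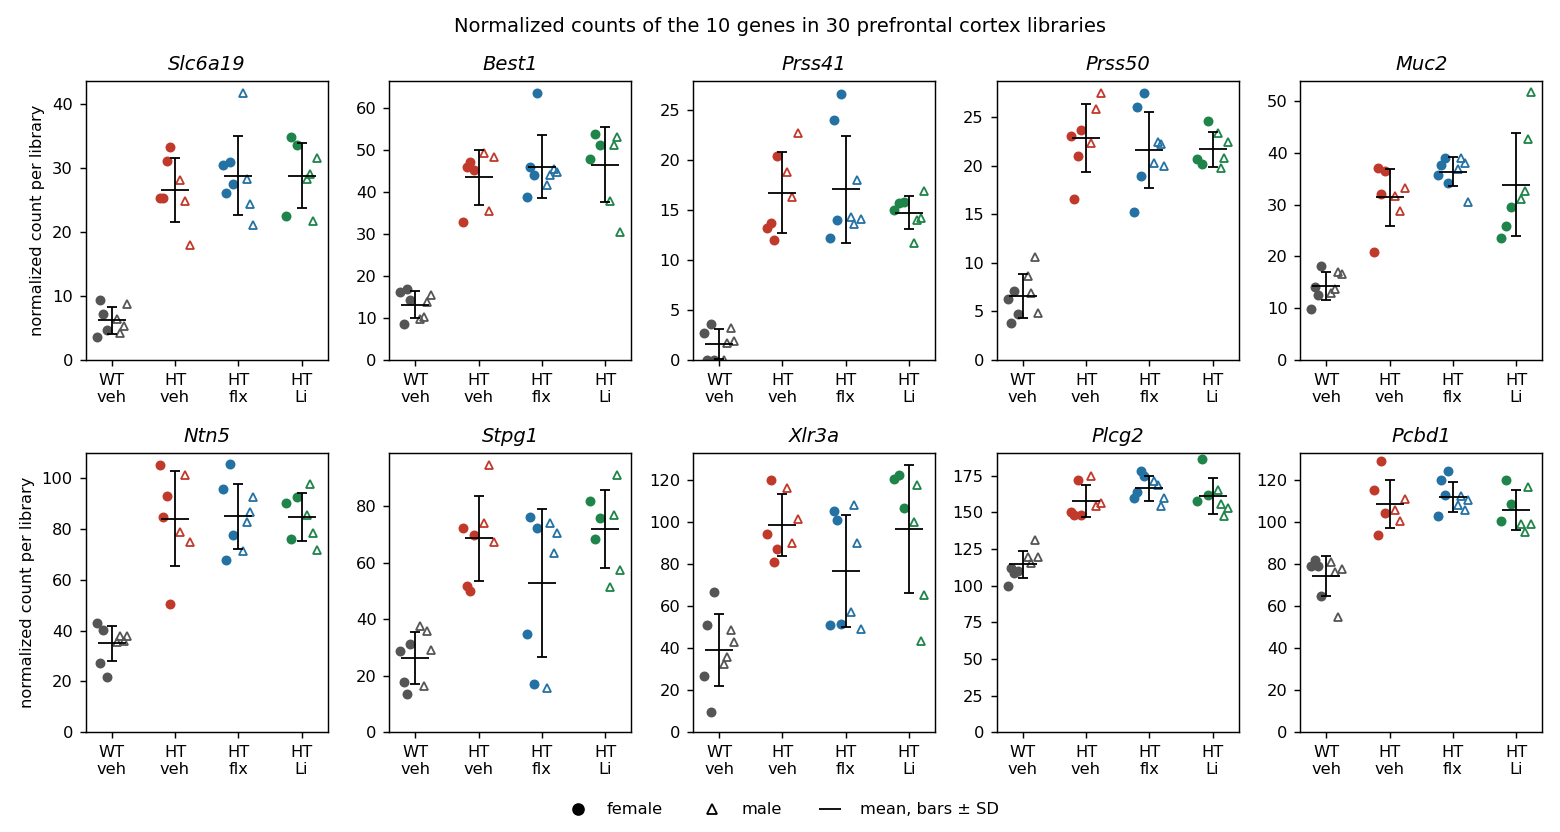
Normalized counts of the 10 genes (vertical axes, starting at 0, 1 scale per gene) in WT vehicle, HT vehicle, HT fluoxetine and HT lithium libraries. Filled circles are female and open triangles male libraries, and black lines are group means with bars of 1 SD. The HT groups sit above WT vehicle for each gene, and only Stpg1 and Xlr3a have HT libraries down among the WT values.

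Slc6a19, the sodium-dependent neutral amino acid transporter of intestinal and kidney epithelium, ranged from 3.59 to 9.43 normalized counts over the 8 WT libraries, with a median of 5.88. In HT vehicle it ranged from 18.0 to 33.3 (median 25.4), in HT fluoxetine from 21.1 to 41.7 (27.9) and in HT lithium from 21.8 to 34.8 (29.1). The lowest of the 22 HT libraries thus lay above the highest WT library. The means were 6.21 ± 2.11 (SD, n = 8) in WT and 26.6 ± 4.96 (n = 7) in HT vehicle, 4.28-fold apart, resting on 52 and 180 reads in all. In log2(normalized count + 1) the difference was 1.95 (SE 0.18); the added 1 makes the changes of low genes look smaller than they are. The means under fluoxetine and lithium were 4.64 and 4.63 times the WT mean.

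Of a list of the other Slc6 transporters and related genes, 15 of 21 were tested and 1 was called higher in HT vehicle, against 0.731% of all genes called in either direction. This was Slc6a16, an orphan member of the family, at 15.8 ± 2.47 in WT and 28.5 ± 3.69 in HT vehicle (log2 difference 0.83, limma adjusted p = 0.000449). Its WT libraries reached 19.7 and its HT vehicle libraries began at 24.1, so the groups did not overlap. Slc6a20a, another transporter of epithelia, was 669.7 ± 155 and 681.8 ± 95.8 (adjusted p = 0.983 in limma). The median log2 difference of the 15 was 0.02.

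Best1, a calcium-activated chloride channel best known from the retinal pigment epithelium, ranged from 8.49 to 16.9 in WT (median 14.0). It ranged from 32.9 to 49.3 in HT vehicle (45.9), from 38.7 to 63.6 in HT fluoxetine (44.3) and from 30.4 to 53.8 in HT lithium (51.2). Again no HT library reached down to the WT values. The means were 13.1 ± 3.21 in WT and 43.4 ± 6.53 in HT vehicle, a 3.31-fold difference (log2 difference 1.68, SE 0.152). Of the other bestrophins and calcium-activated chloride channels, 4 of 8 were tested and 0 were called for genotype, with a median log2 difference of 0.14. Ano1, an epithelial channel of this kind, was 118 ± 20.9 and 129.9 ± 16.4 (limma adjusted p = 0.948).

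Prss41, a trypsin-like serine protease known from testis, had the largest fold difference and the lowest WT level of the 10. It was 0 in 3 of the 8 WT libraries and at most 3.56 in the others, on 14 reads in all. It ranged from 12.01 to 22.8 in HT vehicle (median 16.3), from 12.2 to 26.6 in HT fluoxetine (14.2) and from 11.7 to 16.9 in HT lithium (15.0), with no overlap with WT. The means were 1.63 ± 1.48 in WT and 16.7 ± 4.06 in HT vehicle, 10.2-fold apart (log2 difference 3.001, SE 0.306). That log2 difference depends on the pseudocount of 1 added to each value, and it was 1.74 with a pseudocount of 5.

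Prss50, a protease of the same family that is also known from testis, ranged from 3.77 to 10.6 in WT (median 6.56). In HT vehicle it ranged from 16.6 to 27.5 (23.0), in HT fluoxetine from 15.3 to 27.5 (21.2) and in HT lithium from 19.8 to 24.6 (20.8), again apart from WT. The means were 6.61 ± 2.23 and 22.9 ± 3.51, a 3.46-fold difference (log2 difference 1.71, SE 0.157). Of the other testis and epithelial serine proteases, 13 of 38 were tested and 0 were called for genotype, with a median log2 difference of 0.05. Acr, the protease of the sperm acrosome, was 26.99 ± 4.47 in WT and 23.8 ± 4.92 in HT vehicle (limma adjusted p = 0.942).

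Markers of male germ cells overlapped between the genotypes. Of 9, 4 are in the table (Ddx4, Dazl, Zpbp and Piwil1), and their sum was 184.5 to 212.4 in WT and 156.9 to 248.9 in HT vehicle. The protamine and transition protein genes and Acrv1 were not analysed here. Of 20 other genes of the sperm tail, 8 were tested and 0 were called for genotype, with a median log2 difference of 0.09.

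Muc2, the gel-forming mucin of goblet cells, ranged from 9.86 to 18.1 in WT (median 13.9). It ranged from 20.9 to 37.1 in HT vehicle (32.0), from 30.5 to 39.0 in HT fluoxetine (37.2) and from 23.5 to 51.7 in HT lithium (31.1). The gap between the highest WT and the lowest HT library was narrow here, 18.1 against 20.9. The means were 14.3 ± 2.71 and 31.5 ± 5.5, a 2.19-fold difference (log2 difference 1.08, SE 0.139). Of the other mucins and goblet cell genes, 4 of 18 were tested and 0 were called for genotype: Muc1, for example, was 19.5 ± 7.06 and 23.5 ± 2.19 (limma adjusted p = 0.912).

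Markers of intestinal and kidney epithelium were low in both genotypes. Of 10, 4 are in the table (Epcam, Cdh1, Vil1 and Lrp2), and their sum was 83.4 to 150.9 in WT and 104.3 to 157.2 in HT vehicle; most of it was Cdh1. Epcam, the defining marker of epithelium, stood at 4.65 in WT and 5.98 in HT vehicle on average. The keratin genes and Cdx2 were not analysed here.

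Ntn5 encodes a secreted protein of the netrin family, whose better known members guide axons. It ranged from 21.9 to 43.0 in WT (median 36.8), from 50.5 to 105.4 in HT vehicle (84.9), from 67.8 to 105.8 in HT fluoxetine (84.8) and from 72.0 to 97.8 in HT lithium (85.6). No HT library overlapped with WT. The means were 34.9 ± 6.94 and 84.1 ± 18.6, a 2.41-fold difference (log2 difference 1.24, SE 0.145). All 12 genes of the list of other netrins and netrin receptors were tested and 0 were called, with a median log2 difference of 0.01; the receptor Dcc was 699.7 ± 127 and 738.3 ± 126 (limma adjusted p = 0.968).

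Ntn5 overlaps Sec1, a fucosyltransferase gene on the opposite strand, over 519 exonic bases, 23.4% of its own exonic length. Sec1 itself rose, from 16.8 ± 3.69 in WT to 32.3 ± 4.25 in HT vehicle (log2 difference 0.93, limma adjusted p = 0.000307). The kit marks strand, but no source used here says how strand entered the counting, so reads of the shared bases cannot be told apart between the 2 genes. Both values are therefore uncertain.

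Stpg1, named for the repeats it shares with sperm tail proteins, differed from the genes above in its spread. It ranged from 13.4 to 37.8 in WT (median 28.9), from 50.1 to 94.8 in HT vehicle (69.9) and from 51.6 to 90.9 in HT lithium (75.9). In HT fluoxetine, 5 libraries lay between 63.4 and 76.1, while female 1, female 3 and male 1 were at 34.6, 17.0 and 15.5, inside the WT range. The means were 26.3 ± 9.28 in WT and 68.6 ± 15.1 in HT vehicle, a 2.61-fold difference (log2 difference 1.43, SE 0.314), and the fluoxetine mean was 2.01 times that of WT. The SD in HT fluoxetine was 3.53 times what counting error alone gives. Stpg1 shares 228 exonic bases, 7.47% of its own, with Nipal3 on the opposite strand, which was 3472 ± 465 in WT and 3541 ± 490 in HT vehicle.

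Xlr3a belongs to a family of X-linked lymphocyte-regulated genes, of which close copies lie side by side and some are imprinted in mouse brain. It ranged from 9.79 to 66.6 in WT (median 39.4) and from 81.1 to 120.1 in HT vehicle (94.4). In HT fluoxetine it ranged from 49.3 to 108.3 and in HT lithium from 43.6 to 122.3, so that 4 of 8 and 2 of 7 of these libraries fell within the WT range. The means were 39.2 ± 17.2 in WT and 98.6 ± 14.8 in HT vehicle, a 2.51-fold difference (log2 difference 1.46, SE 0.293).

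The value of Xlr3a is uncertain because of its copies. Of its 4180 distinct 31-base words, 59.7% occur in other genes, 53.7% in Xlr3b and 23.1% in Xlr3c; for the other 9 genes the share was at most 1.17%. Xlr3b, 95.1 kb away, was 142.4 ± 71.7 in WT and 281.6 ± 83.5 in HT vehicle, which limma did not call (adjusted p = 0.676). The sum of Xlr3a and Xlr3b was 181.6 ± 86.7 in WT and 380.3 ± 86.9 in HT vehicle, 2.09-fold apart, with libraries at 45.4 to 317.7 and 260.2 to 503.5, so that the groups overlapped. The sum averaged 239.8 under fluoxetine and 367.5 under lithium. Xlr4b, a further family member 117 kb away, rose from 11.1 ± 10.7 to 37.7 ± 13.2 (log2 difference 2.03, limma adjusted p = 0.00562), though the highest WT library stood at 34.2, above the lowest HT vehicle library at 23.4. It was the only one of the 4 tested family members that was called, while all 4 had a positive log2 difference, with a median of 1.60. Xlr4a, which lies next to Xlr3a, was 7.47 ± 9.94 in WT and 22.5 ± 6.90 in HT vehicle (log2 difference 2.30, limma adjusted p = 0.153).

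Plcg2, a phospholipase C that acts below the B cell receptor and, in brain, is known from microglia, had the smallest log2 difference of the 10. It ranged from 99.5 to 131.1 in WT (median 113.9), from 148.4 to 175 in HT vehicle (154.1), from 154.4 to 178.6 in HT fluoxetine (166.3) and from 147.8 to 186.2 in HT lithium (157.8). No HT library overlapped with WT. The means were 114.6 ± 9.36 and 157.8 ± 11.2, a 1.38-fold difference (log2 difference 0.46, SE 0.0561). Of 19 tested genes of its signalling list 0 were called for genotype, with a median log2 difference of -0.02. Syk was 154.1 ± 15 and 176.8 ± 21.2 (limma adjusted p = 0.632), and the related enzyme Plcg1 3095 ± 119 and 3058 ± 104 (adjusted p = 0.965).

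Markers of the immune cells in which Plcg2 is best known overlapped between the genotypes. The 6 microglial markers, all present, summed to 7345 to 8032 in WT and 7069 to 8241 in HT vehicle. All 6 had a positive log2 difference by genotype, with a median of 0.03. The 5 markers of other macrophages summed to 248.3 to 501.9 and 295.9 to 435.5, and 0 of them had a positive difference (median -0.13). Of 5 B cell markers 3 are in the table, and they summed to 13.6 to 24.2 in WT and 13.01 to 27.8 in HT vehicle. No microglial or macrophage marker was called for genotype, and no B cell marker reached the mean of 10 needed for testing.

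Pcbd1 regenerates the tetrahydrobiopterin cofactor of the aromatic amino acid hydroxylases. It ranged from 55.0 to 82.1 in WT (median 78.3), from 93.7 to 129.1 in HT vehicle (105.7), from 102.8 to 124.4 in HT fluoxetine (111.3) and from 95.5 to 120.03 in HT lithium (100.5), with no overlap. The means were 74.3 ± 9.49 and 108.5 ± 11.4, a 1.46-fold difference (log2 difference 0.54, SE 0.0852). Of a list of tetrahydrobiopterin and related genes, 11 of 14 were tested and 0 were called, although 10 of the 11 had a positive log2 difference and their median was 0.19. Its paralogue Pcbd2 was 79.2 ± 10.6 and 96.8 ± 13.8 (limma adjusted p = 0.328). Gch1, which makes the cofactor's precursor, was 46.6 ± 7.14 and 48.3 ± 12.8 (adjusted p = 0.983).

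Markers of 2 further epithelia were counted beside these genes. The retinal pigment epithelium markers Rpe65, Rlbp1 and Mitf, 3 of a list of 5, summed to 594.5 to 803.7 in WT and 636.6 to 1044 in HT vehicle, and 0 were called. Of 8 choroid plexus markers 7 are in the table, and their sum was 115.7 to 327.3 in WT and 138.6 to 676.8 in HT vehicle. The highest sum was that of HT vehicle male 2, in which the defining marker Ttr stood at 470.001. F5, a coagulation factor on this list, rose from 24.5 ± 4.28 to 37.6 ± 6.42 (log2 difference 0.63, limma adjusted p = 0.0146). It was the only called gene among all marker lists, and without HT vehicle male 1 its adjusted p was 0.0507. Of the 5 choroid plexus markers tested, 4 had a positive difference, with a median of 0.63.

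Markers of neighbouring brain regions varied widely between libraries. The 6 striatal neuron markers all had a positive genotype difference (median 0.26), though their sums overlapped, at 2947 to 15182 in WT and 2923 to 15827 in HT vehicle. Of the 5 olfactory bulb markers, 3 had a positive difference (median 0.42), with sums of 314.4 to 5101 and 753.8 to 11008. None of these 11 genes was called. The part of these cell types and regions in the values of the 10 genes was not tested.

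Per kilobase of exon, all 10 genes lay below the median of all genes tested in WT vehicle, and all but Pcbd1 did in HT vehicle. In WT vehicle the levels ran from 0.619 normalized counts per kb for Prss41, through 1.24 for Slc6a19 and 2.01 for Muc2, to 26.7 for Plcg2 and 91.0 for Pcbd1, where the median of all genes tested was 112.6. In HT vehicle Prss41 stood at 6.33 per kb, Slc6a19 at 5.31 and Pcbd1 at 132.8, where the median was 113.6. Genes whose mean was under 10 are left out of these medians, and Slc6a19, Prss41 and Prss50 entered them only through their HT libraries.

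The drug comparisons ask whether treatment altered these levels within HT mice. These contrasts were not used to choose the genes, but their libraries were. They share HT vehicle with the genotype contrast, and drug-treated HT libraries also entered the choice. Such a choice may favour genes with small drug differences. Against HT vehicle, fluoxetine changed 0 of the 10 genes by limma (adjusted p = 1 for each; 0.0357% of all genes were called), and 0 had an unadjusted p under 0.05. Under edgeR and DESeq2 the count was also 0. Lithium likewise changed 0 of 10 (adjusted p from 0.908 to 0.979, 0.0892% of all genes called), with 0 at an unadjusted p under 0.05 and 0 under edgeR and DESeq2. In some marker lists most or all genes differed in the same direction under both drugs, though no list was tested as a whole. Under lithium, 0 of 6 striatal neuron markers (median -0.76) and 0 of 5 oligodendrocyte markers (-0.19) had a positive difference. By contrast, 5 of 5 olfactory bulb (1.34), 7 of 7 meningeal fibroblast (0.44) and 5 of 5 other macrophage markers (0.29) did. Under fluoxetine the same lists gave, in that order, 0 of 6 (-0.22), 0 of 5 (-0.21), 4 of 5 (0.35), 7 of 7 (0.19) and 5 of 5 (0.23). None of these genes was called under either drug, and the summed markers of each list overlapped between HT vehicle and either drug. The olfactory bulb sums, for example, were 753.8 to 11008 in HT vehicle and 761.7 to 12183 in HT lithium. The striatal sums were 2923 to 15827 and 2691 to 9424.

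The intervals show what these tests could have missed. For Plcg2 the fluoxetine difference was 0.07 (95% interval -0.04 to 0.19) and the lithium difference 0.03 (-0.09 to 0.15), on the log2 scale. For Slc6a19 the fluoxetine difference was 0.13 (-0.24 to 0.50) and the lithium difference 0.14 (-0.24 to 0.52), beside a genotype difference of 1.95. For Prss41, with few reads, the intervals were wide: -0.64 to 0.61 for fluoxetine and -0.82 to 0.49 for lithium, beside 3.001 for genotype. The largest drug difference was that of Stpg1 under fluoxetine, -0.59 (-1.24 to 0.06), carried by the 3 low libraries named above; leaving out each library in turn gave -0.73 to -0.33. Xlr3a under fluoxetine followed at -0.43 (-1.04 to 0.17).

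**Figure D2:**
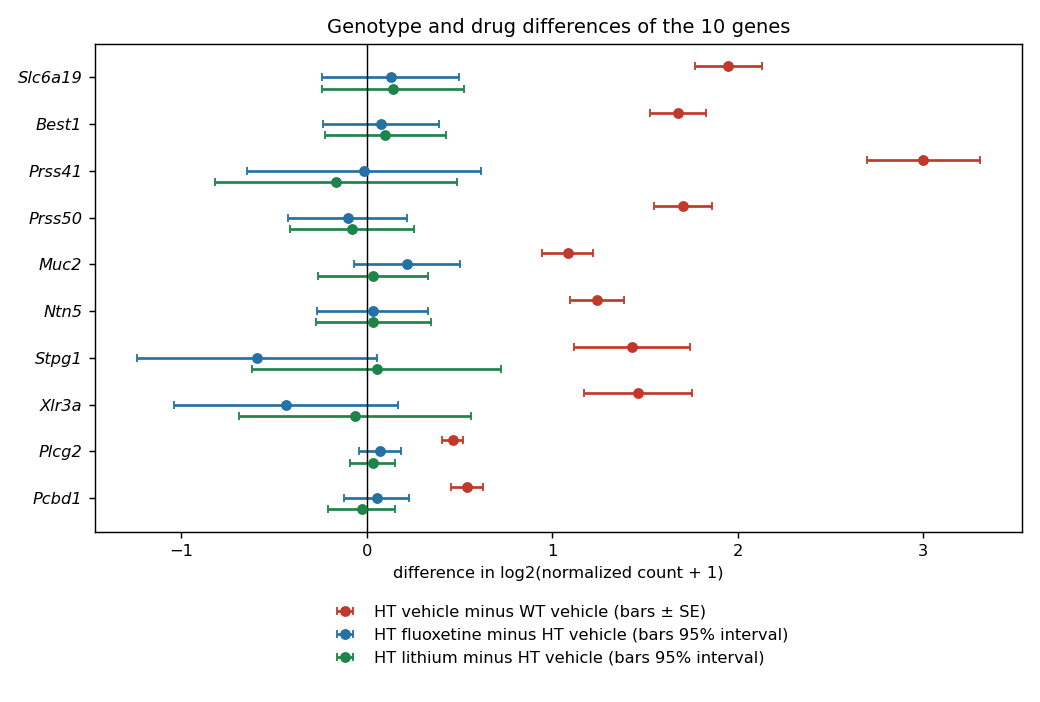
Differences in log2(normalized count + 1) (horizontal axis) for each gene: HT vehicle minus WT vehicle (red, bars of 1 SE, a description) and each drug minus HT vehicle within HT mice (blue fluoxetine, green lithium, bars 95% limma intervals). Genotype differences run from 0.46 to 3.001, and all 20 drug intervals include 0.

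Drug-treated HT libraries also stood above WT vehicle, which shares its libraries with the genotype contrast. Both sets of libraries were in the choice of the genes, so these counts are a description. Every fluoxetine library exceeded every WT library for 8 of the 10 genes (0.476% of all genes did so), and every lithium library for 9 of 10 (0.493%). All 22 HT libraries did so for 8 of 10, against 0.172% of all genes; the exceptions were Stpg1, above WT in 19 of 22, and Xlr3a, in 16 of 22. In fold of the WT mean, HT vehicle, fluoxetine and lithium gave 10.2, 10.5 and 9.02 for Prss41, 3.31, 3.50 and 3.54 for Best1, and 1.46, 1.51 and 1.42 for Pcbd1. For Stpg1 the folds were 2.61, 2.01 and 2.73, and for Xlr3a 2.51, 1.95 and 2.46, so both were lowest under fluoxetine, though no test called that difference.

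Fluoxetine and lithium were compared with each other directly, a contrast that uses neither WT nor HT vehicle libraries. The drug-treated HT libraries that it uses were still in the choice of the genes. Of the 10 genes 0 differed by limma (adjusted p from 0.729 to 0.999, 0% of all genes called), with 0 at an unadjusted p under 0.05. DESeq2 called 14 genes in the table and 0 of the 10. Stpg1 again had the largest difference, -0.65 (95% interval -1.29 to 0.000861, adjusted p = 0.729 in limma).

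No difference between the sexes was called for any of the 10 genes. The mean female minus male difference ran from -0.19 for Stpg1 to 0.12 for Best1 on the log2 scale, and 0 of 10 were called by limma (adjusted p from 0.699 to 0.98), where 0.214% of all genes were. For Xlr3a, the gene on the X chromosome, the difference was 0.04 (95% interval -0.39 to 0.47). The genotype difference was positive in each sex for all 10 genes, for example 2.10 in females and 1.79 in males for Slc6a19 and 2.94 and 3.06 for Prss41. The interaction of genotype with sex was called for 0 of 10 (adjusted p = 1 for each, 0% of all genes called; 345 genes and 0 of the 10 had an unadjusted p under 0.05). The interactions of fluoxetine and of lithium with sex were also called for 0 of 10 and for 0% of all genes, with adjusted p from 0.813 to 0.99 and from 0.51 to 0.932 in limma.

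The scatter among libraries of a group was close to that of counting reads for some of the 10 genes and beyond it for others. For Slc6a19, Best1, Prss41, Prss50, Plcg2 and Pcbd1 the SD in each of the 4 conditions was 0.382 to 1.29 times the SD that counting error gives. For Muc2 it was 0.464 to 1.68 times and for Ntn5 1.01 to 1.998 times. For Xlr3a it was 1.46 to 3.04 times and for Stpg1 1.6 to 3.53 times, above the counting SD in each condition.

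Whether the genes rose and fell together among libraries of the same group was asked with deviations from the 8 group means, which carry none of the genotype difference. Over the 45 pairs of genes and 30 libraries the median Pearson correlation was 0.008, from -0.62 to 0.56, and 23 pairs were positive. No pair reached an adjusted permutation p under 0.05; the lowest was 0.246 for Pearson's r, and 4 pairs had an unadjusted p under 0.05. The highest was Best1 with Prss41 (r = 0.56, permutation p = 0.01, rho = 0.58, permutation p = 0.0055, r = 0.56 without the 2 libraries farthest from the median of Best1; adjusted p = 0.246 and 0.187). The lowest was Muc2 with Ntn5 (r = -0.62, permutation p = 0.0109, rho = -0.49, permutation p = 0.0186, r = -0.51 without the 2 libraries farthest; adjusted p = 0.246 and 0.269). A shared order of the libraries of a group over the 10 genes was thus not detectable. For Slc6a19, Best1, Prss41, Prss50, Plcg2 and Pcbd1 the scatter was close to that of counting reads. Such scatter could hide a shared order. With only 30 libraries, one could be missed for the other genes too, so the question stays undecided for all 10.

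**Figure D3:**
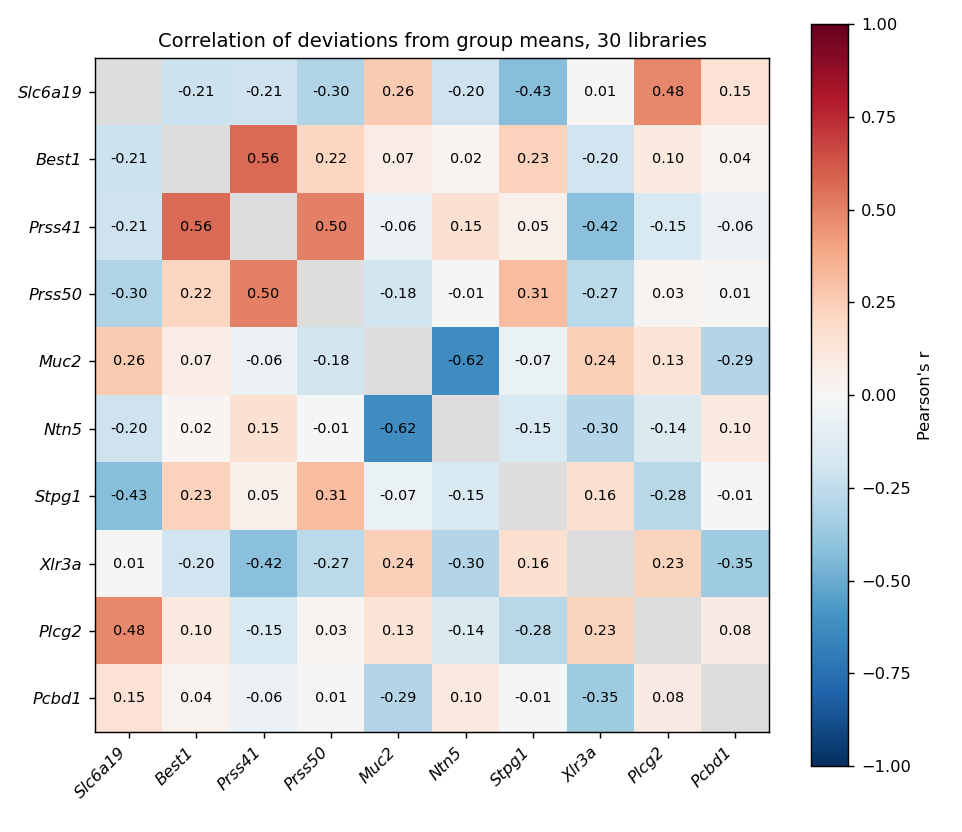
Pearson's r (colour and printed value) between each pair of the 10 genes, from deviations of log2(normalized count + 1) from the group means in 30 libraries. Values run from -0.62 to 0.56, and no pair passed an adjusted permutation p of 0.05.

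The 100 nearest tested genes, 5 on each side of each of the 10, lay 0 to 1760 kb away. Of these, 6 (6.0%) were called for genotype by limma, against 0.731% of all genes, and 62 of the 100 had a positive difference, with a median of 0.03. Sec1 and Xlr4b, described above, are 2 of them, and both are tied to their neighbour by overlap or as a family member. Tert, the catalytic subunit of telomerase, 29.9 kb from Slc6a19, went the opposite way: it fell from 58.8 ± 4.84 to 39.1 ± 8.18 (log2 difference -0.60, limma adjusted p = 0.00494). Nkd2, a Wnt pathway inhibitor 114 kb from Slc6a19 on the other side, rose from 104.8 ± 24.2 to 163 ± 34.2 (0.64, adjusted p = 0.0133), a call that was lost without HT vehicle male 2 (0.0618) and when only WT and HT vehicle libraries entered the fit (0.0728).

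Tdgf1, a growth factor of embryonic stem cells 74.97 kb from Prss50, rose from 7.35 ± 2.81 to 16.4 ± 3.59 (log2 difference 1.10, limma adjusted p = 0.00208). The transcript 9530082P21Rik, 82.7 kb from Prss41, was 49.4 ± 8.29 and 65.6 ± 6.25 (0.41, adjusted p = 0.0497); its call was lost in 12 of 15 fits that left out 1 library and in all 8 other settings, with adjusted p up to 0.221. The calls of Tert, Tdgf1, Sec1, Xlr4b and Slc6a16 were kept in all 15 and all 8. No neighbour of Best1, Muc2, Stpg1, Plcg2 or Pcbd1 was called.

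**Figure D4:**
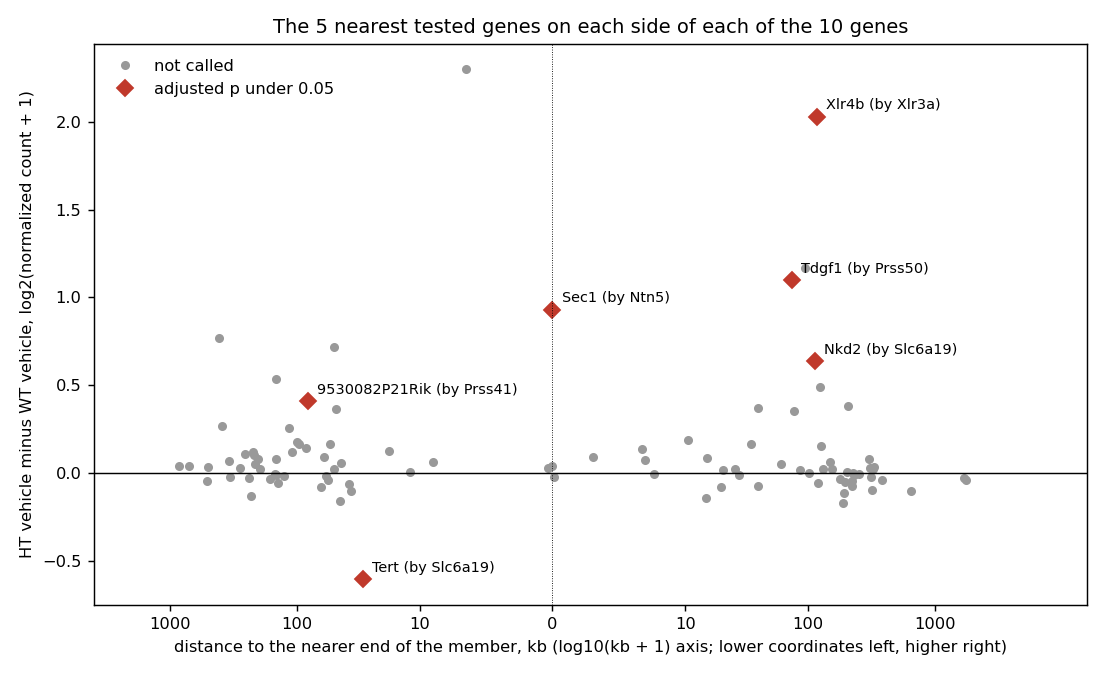
HT vehicle minus WT vehicle difference in log2(normalized count + 1) (vertical axis) of the 5 nearest tested genes on each side of each of the 10 genes, by distance in kb (log10(kb + 1) axis). Red diamonds are the 6 genes with a limma adjusted p under 0.05, of which 5 are higher and Tert is lower in HT vehicle, and grey points are the other 94.

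The genes outside the 10 whose profile over the 8 groups was most like the mean profile of the 10 were sought among 12776 named genes with a mean of at least 50. Likeness was the root mean square difference of the group means in log2 relative to WT, and its median over these genes was 1.26. E2f2, a cell cycle transcription factor, came nearest at 0.119 (29.5 ± 4.1 in WT and 76.5 ± 9 in HT vehicle), then Rnf17, a germ cell tudor-domain gene, at 0.127 (30.5 ± 5.96 and 79.3 ± 8.33). Sycp2, of the synaptonemal complex, followed at 0.188, the zinc finger gene Zfp992 at 0.243 and the meiotic cohesin Rec8 at 0.363. Of the 10 themselves, Ntn5 lay closest to their mean profile at 0.155 and Prss41 farthest at 1.31. The profile rests mainly on the step between WT and HT, which chose the 10 genes.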

How the data were processed

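Transcripts of prefrontal cortex were measured in 30 libraries, grouped by the genotype, treatment and sex in their titles. The authors deposited a gene-level signal. The values show read counts scaled by 1 factor in each library: 100% of values were whole multiples of 1 step within 0.01. Salmon 0.11.2, R 3.6.0, DESeq2 1.19.11 and build GRCm38 are named, per the submitters' processing notes, and no source used here states filters or how strand was treated. The titles and library names do not name a batch, so batch was not examined.

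Identifiers were matched to GENCODE M21 (18227 of 18240 had a symbol). The reads of each library, 23771758 to 34307061, were recovered from the steps; genes with few reads are limited by counting. Tests were run with limma 3.58.1 in R 4.3.3 (with trend and robust options) on log2(normalized count + 1), over the 16824 genes whose mean reached 10, with all 30 libraries and 8 group means in 1 fit; contrasts average the sexes. P-values were adjusted by Benjamini-Hochberg over all genes tested and called at under 0.05. Alternatives were edgeR 4.0.16 and DESeq2 1.42.0 on the recovered reads, TMM scaling, a pseudocount of 5, no filter, a replicate block, fewer libraries and leaving out each library. The script was tested on simulated data. Correlations were permuted within groups (100000 draws, 2-sided) in Python 3.11.15 with numpy 2.4.6 and scipy 1.17.1. Promoters are from RefSeq (GRCm38.p6), with a promoter for 10 of 10 genes.

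The 10 genes, the gene lists and the markers were chosen with earlier results of these data known. Beyond the 10, genes are named where they were called in a list or among the 5 nearest tested genes on a side. Others were a partner or paralogue of a member, were nearest to the mean profile, or served to check the targeted locus. Dnajc7 and Rint1 were chosen after their values were seen.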

Additional observations from a re-analysis of the deposited data

Results flagged for a closer look

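Best1 in HT fluoxetine female 4 stood at 63.6108 normalized counts, far above the other 7 HT fluoxetine libraries, whose highest was 45.9. Its gap to the nearest of them was 0.657 of the group's range on the log2 scale, above the 95% limit of 0.526 for 8 libraries. It was the only such value among the 40 combinations of gene and condition examined, where chance alone gives about 1 in 20.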

How the results depend on the processing

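The count of the 10 genes called under fluoxetine, under lithium, between the drugs, by sex and by genotype with sex stayed at 0 under every alternative run, and that by genotype at 10 except for a range of 9 to 10 when each library was left out and 9 when HT vehicle female 1 was dropped along with HT lithium male 4. Stpg1 was the gene that missed the threshold in each of the 6 single-library fits with 9, which left out HT vehicle female 1 or 4, HT vehicle male 1 or 2, WT vehicle female 3 or WT vehicle male 2. The 10 were chosen on the genotype contrast, so nothing is read from their calls there. Over all 15 fits that left out 1 library the median genotype difference of the 10 ranged from 1.31 to 1.58 and the genes called in the whole table from 88 to 116. With a pseudocount of 5 the log2 differences of Slc6a19, Prss41 and Prss50 were 1.48, 1.74 and 1.29, since a larger pseudocount shrinks low genes most. Counts over the whole table moved more: under fluoxetine 6 genes became 12 with DESeq2 and 11 with only the groups compared (3 to 7 when each library was left out, 3 without HT fluoxetine female 2 or 4 or male 2 or 4, or HT vehicle female 2 or 4 or male 1 or 2), under lithium 15 became 5 with only the groups compared (8 to 16, 8 without HT lithium female 1 and 9 without HT lithium male 3), between the drugs 0 became 14 with DESeq2 (0 to 4, 4 without HT lithium female 1), and by sex 36 became 79 with DESeq2 (28 to 52). The cause was not tested. Of the genes named beside the 10, Nkd2 (limma adjusted p = 0.0728) and 9530082P21Rik (0.206) missed the threshold with only the groups compared. The call of 9530082P21Rik was lost in all 8 such settings and in 12 of 15 fits that left out 1 library. F5 missed it without HT vehicle male 1 (limma adjusted p = 0.0507) and Nkd2 without HT vehicle male 2 (0.0618). No result changed direction past a threshold. With the replicate number as a block, the genes called by genotype were 117 and the 10 genes' median difference was 1.47, and the block ended no call of the 10. Over 28 pairs of groups, same-numbered libraries had deviations correlated from -0.496 to 0.449, with every number over 0.1 in 2 of the 28 (WT vehicle females or males with HT vehicle males) and not in the others, so the numbers were not taken to pair the libraries. Reads limit what could be seen for Prss41, Slc6a19 and Prss50, with 14, 52 and 55 reads over the WT libraries.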
